A study of Mus musculus with 44 samples.

Results

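Lysosomes degrade material that macrophages take up, and the vacuolar H+-ATPase (V-ATPase) pumps protons into them so that their hydrolases work. The pump joins a membrane sector, V0, through which protons pass, to a cytosolic sector, V1, which hydrolyses ATP. Tfeb and Tfe3 are transcription factors of the MiT-TFE family, known for activating lysosomal genes through E-box-like promoter elements. This report follows 32 genes of this system of the 24940 genes listed, chosen by their symbols from a fixed list. They are 5 subunits of V0, 8 subunits of V1, 2 accessory subunits, 5 lysosomal membrane proteins, 10 proteins of the lysosomal lumen and both transcription factors. All 32 were found in each of the 4 count tables, and all 32 passed the filter on low counts in each.

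Bone marrow-derived macrophages of C57BL/6 mice aged 8 to 12 weeks were profiled by RNA-seq of oligo d(T)-enriched mRNA in 44 libraries, as 22 groups of 2. In the NCoR table, NCoR flox/flox cells without Cre (WT) or with LysMCre (NKO) received vehicle, poly I:C (a TLR3 ligand), IFNb, IL4 or KLA (Kdo2-lipid A, a TLR4 ligand) for 6 h, or RANKL for 12 h. The RGFP966 table holds wild-type cells with vehicle, KLA or KLA plus RGFP966, an HDAC3 inhibitor. The Pgc1b table holds Pgc1b flox/flox cells without or with LysMCre, with vehicle or KLA, and the DMSO table holds wild-type cells with DMSO and vehicle, DMSO and KLA, or a TBK1 inhibitor and KLA, all at 6 h. The study describes serum starvation of the macrophages for 12 h before treatment, with the inhibitors added when the starvation began. No group received an inhibitor without KLA, so that an effect present before KLA and a changed response to KLA cannot be told apart. The RANKL columns name osteoclasts, for whose culture the study describes no starvation. LysMCre deletes floxed genes in the myeloid lineage and is inserted in Lyz2. The flox controls carry no Cre, so that Cre itself and the deletion cannot be told apart. The labels do not say whether the 2 libraries of a group came from separate mice, so that p-values measure only the spread between these libraries, which may be technical.

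Gene counts ranged from 8323493 to 16783155 per library, and replicate libraries correlated at 0.985 or more across genes on the log2 CPM scale. Ncor1, the gene deleted in NKO cells, lay at 49.4 to 65.0 CPM (counts scaled to library size with TMM factors) in the 12 NKO libraries and at 133 to 216 CPM in the 12 WT libraries. All 7 macrophage markers were detected in every library. The library names carry date stamps. Those of WT_Veh, poly I:C, IFNb and IL4 are the same in both genotypes, whereas WT_KLA was stamped 115 days before WT_Veh, both RANKL groups 536 days before it, and NKO_KLA 1401 days before WT_KLA. Xist was read in 34 libraries, and Y-linked transcripts instead of Xist in 10, namely both NKO_KLA libraries and all 8 of the Pgc1b table. At KLA, genotype, date stamp and sex therefore cannot be told apart in the NCoR table. The 4 RANKL libraries carried neutrophil markers, with a summed level of 990 to 1442 CPM over 5 markers against 1.34 to 22.8 CPM in the other 40 libraries. Summed fibroblast markers were also higher there, at 168 to 274 CPM against 0 to 109 CPM. Their column names call the cells osteoclasts. The summed level of 6 osteoclast markers was 90.5 to 111 CPM in the 4 RANKL libraries and 53.9 to 176 CPM in the other 40. Acp5 (45.1 to 57.7 CPM), Ctsk (23.8 to 46.3 CPM) and Dcstamp (7.69 to 18 CPM) were read in all 4, while Calcr and Oscar had at most 1 and 3 counts there and at most 3 and 8 in the others.

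The promoters are shown first because Tfeb and Tfe3 are known to bind the palindrome TCACGTGA, a short form of the CLEAR element. RefSeq promoters of 300 bases (250 before and 50 from the transcription start, build GRCm38.p6) were given for 27 of the 32 genes and searched on both strands. The E-box CACGTG, which lies inside the longer motif, was present in 8 of the 27 (29.6%) against 8.09% of the 27025 genes with a promoter. TCACGTGA was present in 4 (14.8%) against 1.12% of all genes. The longer form of the CLEAR element, extended by a base at each end, was also searched. It was present in 0 of the 27 against 0.37% of all genes. At so low a share, 0 of 27 promoters does not set these genes apart from all genes. The 4 sites of TCACGTGA are printed below with the motif in capitals, in the direction of each gene, as windows of 30 bases.
Mcoln1: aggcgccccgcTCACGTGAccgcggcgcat
Atp6v0d1: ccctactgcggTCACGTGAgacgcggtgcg
Atp6v1a: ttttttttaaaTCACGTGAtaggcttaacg
Atp6v0e: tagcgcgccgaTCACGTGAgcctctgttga
The windows lie at chr8:3500462-3500491 (plus strand) for Mcoln1, the TRPML1 calcium channel, and at chr8:105566050-105566079 (minus) for Atp6v0d1, the V0 d subunit. The others lie at chr16:44139373-44139402 (minus) for Atp6v1a, the catalytic V1 A subunit, and at chr17:26676387-26676416 (plus) for Atp6v0e, the V0 e subunit. The central CACGTG began 45 bases before the start in Mcoln1, 3 before it in Atp6v0d1, 131 before it in Atp6v1a and at base 4 of the transcript in Atp6v0e. These 4 genes did not move together: KLA lowered Mcoln1 and Atp6v1a in 3 of 4 tables each, and Atp6v0d1 and Atp6v0e were called in none. Lamp1, a heavily glycosylated protein of the lysosomal membrane, held 4 copies of CACGTG, 1 of them shown here with the E-box in capitals.
Lamp1: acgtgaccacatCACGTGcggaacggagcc
That window lies at chr8:13159134-13159163 (plus), with the E-box 15 bases before the start.

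In untreated cells the lumenal proteins stood at both ends of the order of levels, with Psap highest and Manba lowest. Levels between genes are compared here as CPM per kb of transcript, as means of the 4 vehicle groups. Psap, the precursor of the saposins that help to degrade sphingolipids, came first at 3865, with group means from 2769 to 4524. Lipa, the lysosomal acid lipase that hydrolyses cholesteryl esters, followed at 850, Lamp1 at 792 and Grn, progranulin, at 676. The group means of Lipa (771 to 977) and Lamp1 (756 to 840) overlapped. Among the pump subunits, Atp6v1b2, the nucleotide-binding B2 subunit, was highest at 311 and Atp6v1g1, a stalk subunit, lowest at 39.0 CPM per kb. Atp6v1c1 and Atp6v0d1 were level at 108 each. Tfe3 lay at 50.5 and Tfeb at 34.1, with vehicle means from 42.1 to 60.2 and from 25.0 to 42.0. The lowest of all was Manba, the lysosomal beta-mannosidase, at 16.8. Over the 22 groups the mean CPM of Tfeb varied most, 11.4-fold between its lowest and highest group, followed by Manba at 8.44-fold. Atp6v0d1 varied least, at 1.55-fold, and Cd63, a tetraspanin of late endosomes, varied 1.67-fold.

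KLA lowered Tfeb, Npc1 and several lumenal enzymes and raised a small set of V1 subunits, Lamp2 and Npc2. Here a called gene passed 0.05 in edgeR's quasi-likelihood test after Benjamini-Hochberg adjustment and changed by over 1.5-fold. In WT cells 5 of the 32 genes were called higher and 13 lower, in a comparison that called 57.8% of all genes tested (25.4% higher and 32.3% lower). The median log2 fold change of the 32 was -0.31 against -0.14 for all genes. The share called was thus near that of all genes, and what follows concerns which genes moved. In the other tables the counts were 5 higher and 13 lower (RGFP966 table, background 60%, median -0.21), 2 and 7 (Pgc1b table, 48.5%, median -0.02) and 5 and 12 (DMSO table, 58.9%, median -0.06). The 4 contrasts share no library. Called lower in all 4 were 6 of the 32 genes, a share near the 19.1% of the 11757 genes tested in all 4. Called higher in all 4 were 2 of the 32, a share below the 18.9% of all genes.

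**Figure D1:**
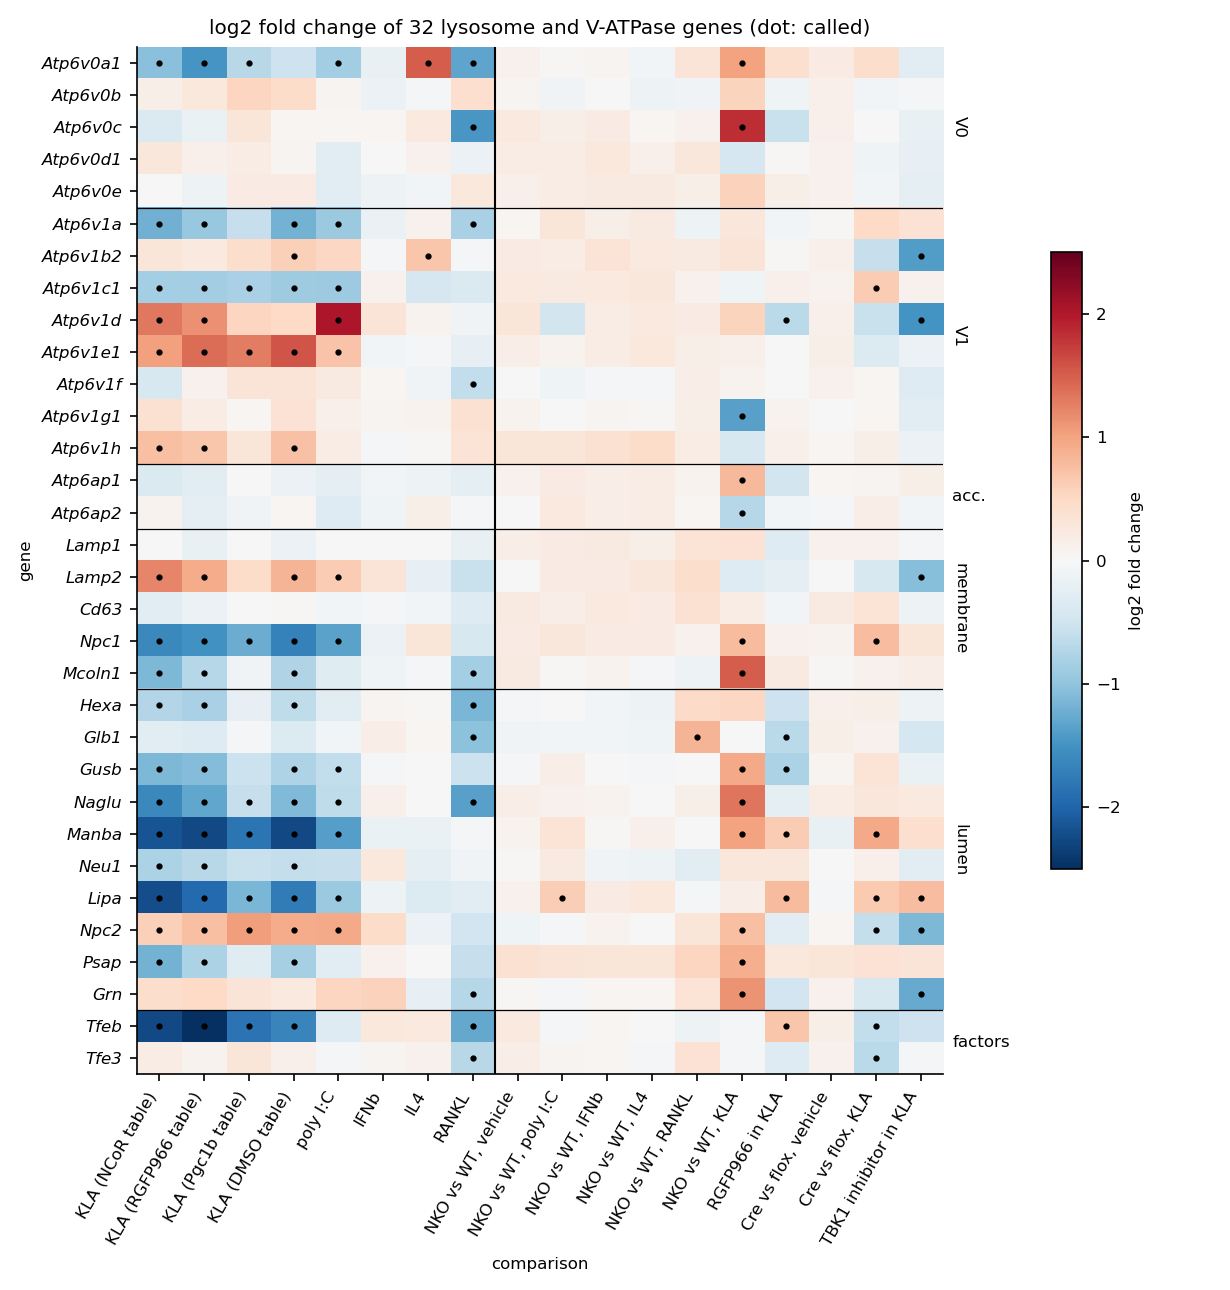
Log2 fold change of the 32 genes (rows, grouped by role) in 8 ligand comparisons (left of the line) and 10 comparisons of genotype or inhibitor (right of it), with colour for the log2 value and a dot where the gene was called. Tfeb, Manba, Lipa and Npc1 were low in all 4 KLA columns, and the IFNb column holds no dot.

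The 6 genes lower in all 4 tables were Tfeb, Atp6v1c1, Naglu, Npc1, Manba and Lipa. Tfeb counted 97.0 and 97.8 CPM in WT_Veh and 19.3 and 21.7 CPM in WT_KLA. It fell from 77.1 and 73.1 to 11.4 and 11.9 CPM in the RGFP966 table, from 53.9 and 62.2 to 15.6 and 16.8 CPM in the Pgc1b table, and from 89.3 and 82.2 to 25.7 and 28.7 CPM in the DMSO table. No KLA library overlapped a vehicle library in any table, and the fall was 3.15- to 6.45-fold. Tfe3, the related factor, went from 203 and 190 to 228 and 217 CPM in WT cells, and its log2 fold changes in the 4 tables (0.08 to 0.30) were never called.

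Lipa dropped from 2887 and 2893 CPM in WT_Veh to 639 and 596 CPM in WT_KLA, a log2 change of -2.23 ± 0.05 (SE, adjusted p = 3.0e-44). In the other tables it fell by 1.94, 1.14 and 1.75 on the log2 scale, so that the Pgc1b table gave the smallest change. Manba fell from 65.0 and 64.7 to 17.4 and 11.8 CPM (-2.15 ± 0.11 in WT), and by 1.83 to 2.26 on the log2 scale in the others. Npc1, the membrane protein that passes cholesterol out of the lysosome, went from 322 and 325 to 111 and 101 CPM (-1.61 ± 0.06), and the 4 tables gave folds of 2.37 to 3.24. Its lumenal partner Npc2, which hands cholesterol to it, moved the other way in all 4 tables: 1173 and 1193 CPM became 1789 and 1773 CPM in WT (log2 0.59 ± 0.05), and the log2 change reached 1.04 ± 0.06 in the Pgc1b table. Both steps of the sterol relay were thus measured with opposite sign in the same libraries.

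The glycosidases that were called moved in 1 direction. Naglu, the alpha-N-acetylglucosaminidase of heparan sulfate breakdown, fell from 167 in both WT_Veh libraries to 54.2 and 55.7 CPM (-1.60 ± 0.07). Gusb, beta-glucuronidase, went from 713 and 706 to 327 and 324 CPM (-1.12 ± 0.05). Hexa, the beta-hexosaminidase alpha chain, and the sialidase Neu1 fell by 0.74 and 0.79 on the log2 scale in WT. Gusb, Hexa, Neu1 and Psap were called lower in 3 of 4 tables each, the exception being the Pgc1b table. Glb1, beta-galactosidase, was called in none. Of the 10 lumenal proteins, 7 were thus called lower and 1 higher in WT. The same 7 and 1 counts came from the RGFP966 and DMSO tables, whereas the Pgc1b table gave 3 lower and 1 higher. The share called lower was 70% in WT, RGFP966 and DMSO, against 32.3%, 32.2% and 29.3% of all genes. For the Pgc1b table it was 30% against 25.7%, near the background. Psap alone took 1.40% to 1.45% of all gene counts in WT_Veh and 0.377% to 0.384% in WT_KLA. The 32 genes together took 3.30% to 3.39% and 1.38% to 1.39%, shares that did not overlap. The share depends on what other transcripts take up as well as on these genes.

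**Figure D2:**
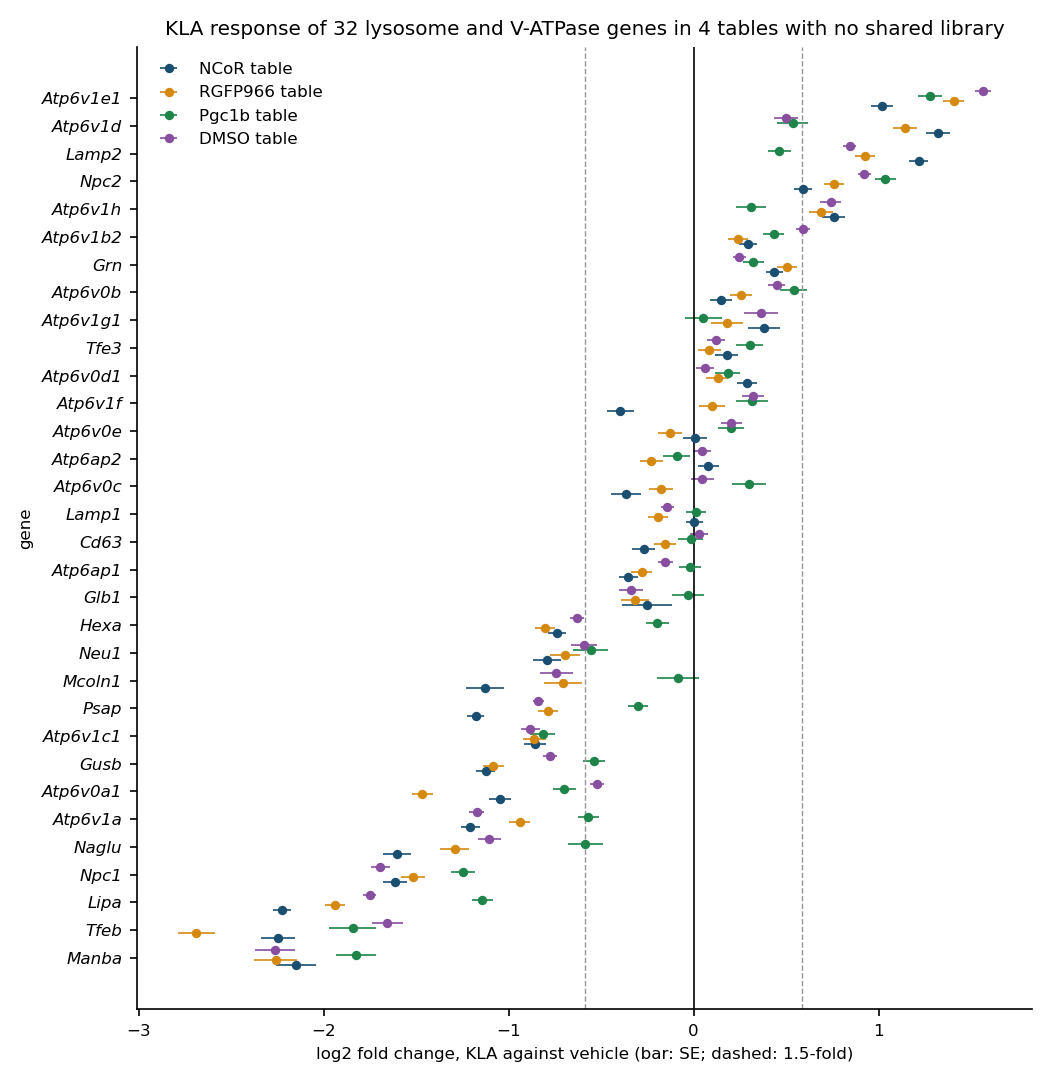
Log2 fold change with KLA against vehicle (x axis, bars are SE) for the 32 genes (y axis, ordered by their mean) in 4 tables shown by colour. Manba, Tfeb, Lipa and Npc1 lay left of the dashed 1.5-fold line in all tables, Atp6v1e1 and Npc2 lay right of it in all, and the log2 values of Lamp1 kept between -0.19 and 0.01.

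Within the proton pump the subunits split. Atp6v1e1, the E1 stalk subunit of V1, rose in all 4 tables, by a log2 change of 1.02 ± 0.06 in WT (206 and 172 to 371 and 394 CPM) and by 1.57 ± 0.04 in the DMSO table (149 and 146 to 423 and 450 CPM). Atp6v1d, the D subunit of the central shaft, rose 2.50-fold in WT (71.8 and 62.2 to 174 and 161 CPM) and 2.21-fold in the RGFP966 table. Its log2 changes of 0.54 and 0.50 in the other tables were under the fold threshold. Atp6v1h, the regulatory H subunit, was called higher in 3 tables, with 93.1 and 82.7 CPM in WT_Veh against 148 and 150 CPM in WT_KLA. Atp6v1b2 was called higher in the DMSO table alone (707 and 729 to 1081 and 1084 CPM, 0.59 ± 0.04). Other subunits fell. Atp6v1a, the catalytic A subunit, fell from 1064 and 974 to 449 and 433 CPM in WT and was called lower in 3 tables, and Atp6v1c1, which controls assembly of V1 with V0, was lower by 0.82 to 0.88 on the log2 scale in all 4. Atp6v0a1, 1 of the alternative a subunits of V0, went from 579 and 576 to 283 and 275 CPM in WT and was called lower in 3 tables. Atp6v0b, Atp6v0c, Atp6v0d1, Atp6v0e, Atp6v1f, Atp6v1g1 and both accessory subunits, Atp6ap1 and Atp6ap2, were called in no table.

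The membrane proteins differed likewise. Lamp2, the partner of Lamp1 needed for fusion with autophagosomes, rose from 558 and 585 to 1312 and 1348 CPM in WT (1.22 ± 0.05) and was called higher in 3 tables. Lamp1 stood at 1882 and 1847 CPM in WT_Veh and at 1869 and 1871 CPM in WT_KLA, groups that overlapped. Cd63 gave 201 and 192 CPM in WT_Veh against 164 and 162 CPM in WT_KLA, and was not called in any table. Mcoln1 fell from 58.1 and 51.3 to 26.4 and 23.7 CPM in WT (-1.13 ± 0.10), but its log2 change in the Pgc1b table was -0.08.

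**Figure D3:**
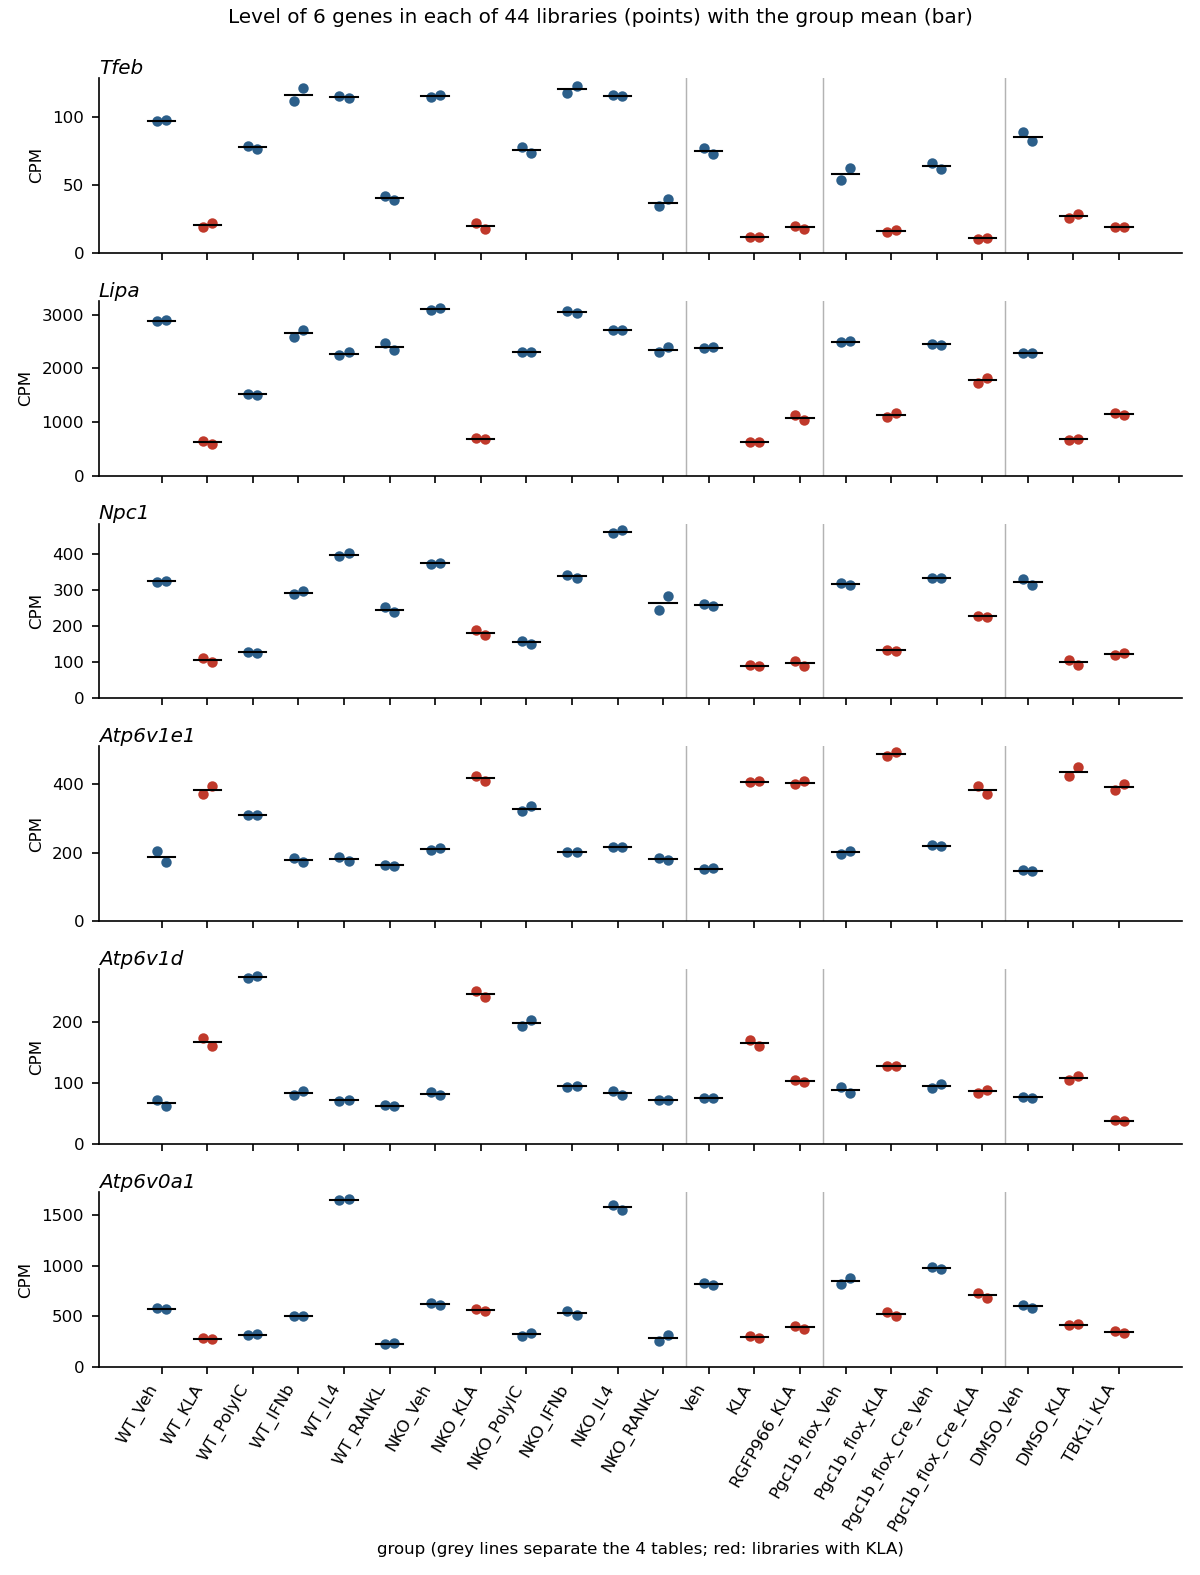
CPM (y axis, from 0) of Tfeb, Lipa, Npc1, Atp6v1e1, Atp6v1d and Atp6v0a1 in each of the 44 libraries (points, red where KLA was given), with group means as bars and groups on the x axis. Tfeb was at most 28.7 CPM in every KLA library and at least 34.5 CPM in every other library, and Atp6v0a1 stood highest with IL4.

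Poly I:C moved fewer of the genes. In WT cells 4 were called higher and 8 lower (12.5% and 25% of the 32, against 22.2% and 25% of all genes, 47.2% in all), with a median of -0.25 against -0.07. This comparison uses the same WT_Veh libraries as the KLA, IFNb, IL4 and RANKL comparisons. Atp6v1d rose most, from 71.8 and 62.2 to 272 and 275 CPM (log2 2.03 ± 0.06, adjusted p = 9.8e-38). Npc2 went up to 2272 and 2307 CPM (0.95 ± 0.05), and Atp6v1e1 and Lamp2 rose by 0.71 and 0.64 on the log2 scale. Manba fell to 26 and 24.2 CPM (-1.37 ± 0.09), Npc1 to 129 and 125 CPM (-1.35 ± 0.06) and Lipa to 1524 and 1505 CPM (-0.93 ± 0.05). Atp6v1a, Atp6v1c1, Atp6v0a1, Naglu and Gusb were the other genes called lower, at -0.61 to -0.92. Tfeb was at 79.0 and 76.3 CPM, below both vehicle libraries, with a log2 change of -0.33 ± 0.07 that was under the fold threshold.

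With IFNb 0 of the 32 genes were called by edgeR or by DESeq2, where 6.47% of all genes were called (4.09% higher and 2.37% lower). By the adjusted p alone, 6 genes were higher and 5 lower, against 14.8% and 10.6% of all genes, and 16 had an unadjusted p below 0.05. Grn came nearest to the threshold, with 2805 and 2855 CPM against 1857 and 1936 CPM (0.58 ± 0.05), followed by Npc2 with 1616 and 1636 CPM (0.46 ± 0.05). IL4 called 2 genes, both higher, where 13.1% of all genes were called (6.63% higher and 6.46% lower). Atp6v0a1 rose from 579 and 576 to 1647 and 1658 CPM (1.52 ± 0.06, adjusted p = 1.3e-31), and Atp6v1b2 from 933 and 926 to 1512 and 1484 CPM (0.69 ± 0.05). They belong to V0 and V1, and their levels with IL4 lay above those of all vehicle libraries. In NKO cells the IL4 levels were 1602 and 1552 CPM for Atp6v0a1 and 1780 and 1783 CPM for Atp6v1b2. The pump subunits took 0.733% to 0.743% of gene counts in WT_IL4 against 0.524% to 0.557% in WT_Veh. Of the 15 subunits only Atp6v0a1 and Atp6v1b2 were called (13.3%, against 13.1% of all genes). The median log2 change of the 15 was 0.08, so that the share does not stand for all subunits.

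With RANKL for 12 h, 0 genes were called higher and 11 lower (34.4% of the 32), against 24.1% and 19.8% of all genes (43.8% in all), with a median log2 fold change of -0.38 against 0.02. Atp6v0c, the proteolipid that forms the V0 ring, fell from 95.1 and 109 to 39.4 and 34.5 CPM (-1.46 ± 0.08). Its count is uncertain because a pseudogene, Atp6v0c-ps2, overlaps it on the same strand. Atp6v0a1 went to 229 and 232 CPM (-1.32 ± 0.06), Naglu to 69.2 and 60.9 CPM (-1.36 ± 0.06) and Hexa to 512 and 487 CPM (-1.13 ± 0.05). Both factors were lower, Tfeb at 42.0 and 38.7 CPM (-1.27 ± 0.07) and Tfe3 at 121 and 121 CPM against 203 and 190 CPM in vehicle (-0.70 ± 0.06). Glb1, Mcoln1, Atp6v1a, Grn and Atp6v1f completed the list, at -0.62 to -1.03, Glb1 with the reserve that it overlaps Tmppe on the same strand. Lipa, at 2473 and 2333 CPM, and Manba, at 62.5 and 62.4 CPM, were not called with RANKL. The RANKL libraries differ from WT_Veh in date stamp and duration and carry the neutrophil and fibroblast markers given above. The part of these in the RANKL values was not tested, and fewer cells of a type and less RNA per cell cannot be told apart in such bulk samples.

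In vehicle, 0 of the 32 genes were called between NKO and WT by edgeR or by DESeq2, where 6.21% of all genes were called, and 19 had an unadjusted p below 0.05. The small differences mostly had 1 sign. By adjusted p alone, 15 of the 32 were higher and 0 lower in NKO_Veh, against 9.63% and 10.4% of all genes. The corresponding counts were 17 and 1 with poly I:C (10.2% and 9.8%), 17 and 0 with IFNb (7.81% and 5.66%), 15 and 0 with IL4 (9.47% and 7.68%) and 16 and 2 with RANKL (17.2% and 17.1%). The medians were 0.12, 0.17, 0.16, 0.13 and 0.15, whereas those of all genes were between -0.01 and 0.01. These 5 contrasts share no library, but the labels do not say whether they share mice, so that they may not be independent repeats. In the 4 conditions with 1 date stamp, namely vehicle, poly I:C, IFNb and IL4, 7 genes (21.9%) were higher by adjusted p in every one, against 2.74% of all genes, and 0 were lower in every one, against 1.63%. Passing an adjusted p without a fold threshold also depends on read counts, and all genes were not matched to the 32 for these. Marker levels differed between the genotypes in the same libraries. The 6 osteoclast markers summed to 144 and 149 CPM in NKO_Veh against 65.8 and 53.9 CPM in WT_Veh, and to 142 to 169 CPM against 56.2 to 66.8 CPM with IFNb, IL4 and poly I:C. The 7 macrophage markers summed to 11170 and 11433 CPM in NKO_Veh against 16787 and 17175 CPM in WT_Veh, and the fibroblast markers to 54.2 and 52.2 against 79.2 and 71.6 CPM. Both sums were also lower in NKO cells with IFNb, IL4 and poly I:C. Much of the macrophage difference lay in Lyz2, the gene that carries LysMCre and is among the 7 markers. Lyz2 was at 4581 and 4626 CPM in NKO_Veh against 9288 and 9129 CPM in WT_Veh, and was also called lower with IFNb, IL4 and poly I:C. The part of these markers in the result was not tested.

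**Figure D4:**
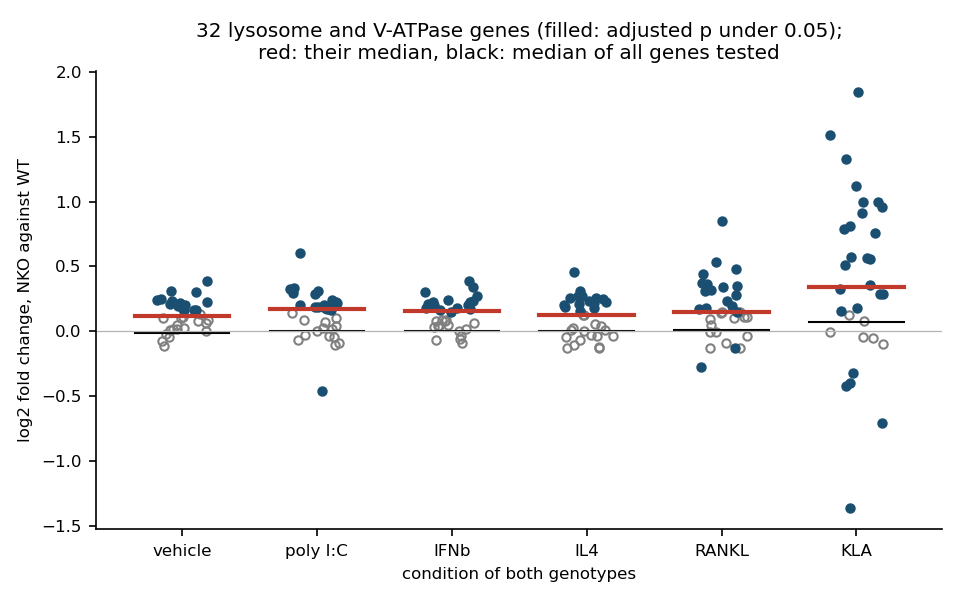
Log2 fold change of NKO against WT (y axis) for the 32 genes (points, filled where the adjusted p is below 0.05) in 6 conditions (x axis), with the median of the 32 in red and of all genes tested in black. The red line lay at 0.12 to 0.17 in the first 5 conditions and at 0.34 with KLA, where date stamp and sex also differ.

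The 7 genes were Psap, Lamp1, Cd63, Npc1, Atp6v1h, Atp6v1c1 and Atp6v1b2. Psap gave 15609 and 15595 CPM in NKO_Veh against 12066 and 11829 CPM in WT_Veh (log2 0.38 ± 0.05, adjusted p = 7.6e-10). With IL4 it gave 15283 and 14640 CPM against 12106 and 12072 CPM. The NKO libraries lay above the WT libraries in both, and the 4 log2 differences ran from 0.30 to 0.38. Atp6v1h stood at 109 and 110 CPM in NKO_Veh against 93.1 and 82.7 CPM in WT_Veh (0.31 ± 0.06). Npc1 counted 372 and 375 CPM against 322 and 325 CPM (0.21 ± 0.05), Cd63 230 and 228 CPM against 201 and 192 CPM (0.22 ± 0.06), and Lamp1 2094 and 2077 CPM against 1882 and 1847 CPM (0.16 ± 0.05). All these differences were under 1.5-fold.

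In each of the poly I:C and RANKL comparisons 1 gene was called. Lipa was 2303 and 2312 CPM in NKO_PolyIC against 1524 and 1505 CPM in WT_PolyIC (0.61 ± 0.05, background 5.93%). Glb1 was 87.2 and 83.9 CPM in NKO_RANKL against 44.1 and 51.1 CPM in WT_RANKL (0.85 ± 0.13, background 13.2%). With IFNb and IL4, 0 were called by edgeR or DESeq2 (3.8% and 4.24% of all genes), and 17 and 18 had an unadjusted p below 0.05. DESeq2 also called 0 with poly I:C, with Lipa at 0.58.

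With KLA, 11 genes were called higher and 2 lower in NKO_KLA (34.4% and 6.25%), against 21% and 19% of all genes (40% in all), with a median of 0.34 against 0.07. By adjusted p alone the counts were 21 and 5 (31.6% and 28.5% of all genes). In these libraries date stamp and sex go with genotype, as described above. Grn was 5555 and 5634 CPM in NKO_KLA against 2560 and 2573 CPM in WT_KLA (1.12 ± 0.05), Naglu 142 and 134 against 54.2 and 55.7 CPM (1.33 ± 0.08), and Mcoln1 72.9 and 70.0 against 26.4 and 23.7 CPM (1.51 ± 0.10). Atp6v0c, with the reserve above, was higher by 1.85 ± 0.08, and Atp6v0a1, Manba, Gusb, Psap, Atp6ap1, Npc1 and Npc2 by 0.76 to 1.00. Atp6v1g1 was lower, at 20.3 and 21.9 against 50.9 and 57.7 CPM (-1.37 ± 0.10), as was Atp6ap2, the prorenin receptor, at 126 and 132 against 219 and 201 CPM (-0.70 ± 0.06). By the interaction term the response to KLA differed for 13 of the 32 genes, where 36.9% of all genes were called. The term for IFNb and that for IL4 called 0, where 0.604% of all genes were called in each. These counts were all near the shares of all genes. Tfeb and Tfe3 stood at 21.7 and 17.8 CPM and at 218 and 211 CPM, beside WT_KLA values of 19.3 and 21.7 CPM and of 228 and 217 CPM.

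NKO_KLA was also compared with KLA groups from the other 3 tables, in a joint fit. It held 29 of the 32, those listed with 1 transcript throughout, and left out Atp6v0c, Psap and Tfe3. The same NKO_KLA libraries, with their own date stamp, stand in every comparison, so that stamp and genotype still cannot be told apart. Against Pgc1b_flox_KLA, whose libraries also carry Y-linked transcripts, 5 were called higher and 4 lower. The median was 0.10 against -0.04 for all genes. Against the RGFP966 and DMSO tables' KLA libraries, 9 and 10 were higher and 2 and 1 lower. The medians there were 0.26 and 0.35 against 0.004 and -0.03 for all genes. The share of all genes called in these fits is not given, so that the counts cannot be set against a background. Grn, Mcoln1, Naglu and Npc2 were called higher against all 3, with log2 differences of 1.34 to 1.64 for Grn, 0.72 to 1.19 for Mcoln1, 0.84 to 1.37 for Naglu and 0.63 to 0.95 for Npc2. Atp6v1g1 was called lower against all 3. Atp6v0a1 was called against 1 of the 3, with 0.04 to 0.59. Npc1 (0.40 to 0.80) and Atp6ap1 (0.36 to 0.79) were called higher against 2 of the 3, and Atp6ap2 (-0.85 to -0.40) lower against 2 of the 3. Levels set across these tables rest on libraries made apart from each other.

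RGFP966 during KLA called 3 of the 32 genes higher and 3 lower, where 25.4% of all genes were called. The split was 2 and 4 with DESeq2 size factors. Lipa was 1122 and 1039 CPM with the inhibitor against 620 and 626 CPM with KLA alone (0.80 ± 0.05), where vehicle cells had 2382 and 2393 CPM. Tfeb was 20.0 and 17.6 against 11.4 and 11.9 CPM (0.69 ± 0.12), and Manba 15.2 and 13.3 against 8.51 and 9.72 CPM (0.64 ± 0.14). For these 3 genes the inhibitor libraries lay between KLA and vehicle. Gusb, which KLA lowered, fell further to 153 and 146 from 269 and 252 CPM (-0.80 ± 0.06). Glb1 fell to 37.1 and 35 from 60.7 and 55.1 CPM (-0.68 ± 0.08), and Atp6v1d went from 171 and 161 to 105 and 102 CPM (-0.68 ± 0.07). The values with KLA alone are shared by this and the KLA comparison of the same table. The 2 libraries with RGFP966 carry stamps 14 days apart. Manba was not called when KLA replicate 1 or RGFP966_KLA replicate 1 was left out (0.55 and 0.54).

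The TBK1 inhibitor during KLA called 1 of the 32 genes higher and 5 lower, where 33.3% of all genes were called. The median was -0.15 against 0.01 for all genes. Atp6v1d was 38.7 and 38.5 CPM against 105 and 111 CPM with DMSO and KLA (-1.49 ± 0.08), which is also below the vehicle libraries at 77.1 and 75.8 CPM. Atp6v1b2 fell to 406 and 412 from 1081 and 1084 CPM (-1.41 ± 0.04) and Grn to 870 and 894 from 2144 and 2066 CPM (-1.26 ± 0.04). Both were likewise below their vehicle levels, of 707 and 729 CPM and of 1794 and 1751 CPM. Npc2 fell to 815 in both libraries from 1782 and 1767 CPM (-1.12 ± 0.04), and Lamp2 to 476 and 468 from 984 and 980 CPM (-1.06 ± 0.04). Lipa was 1174 and 1129 CPM against 669 and 686 CPM (0.77 ± 0.04), between KLA and vehicle. Atp6v1e1, the gene that KLA raised most in this table, was 383 and 402 CPM with the inhibitor against 423 and 450 CPM, a log2 difference of -0.15 ± 0.04 that was not called. Tfeb was at 19 and 19.3 against 25.7 and 28.7 CPM (-0.51 ± 0.11), also not called.

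**Figure D5:**
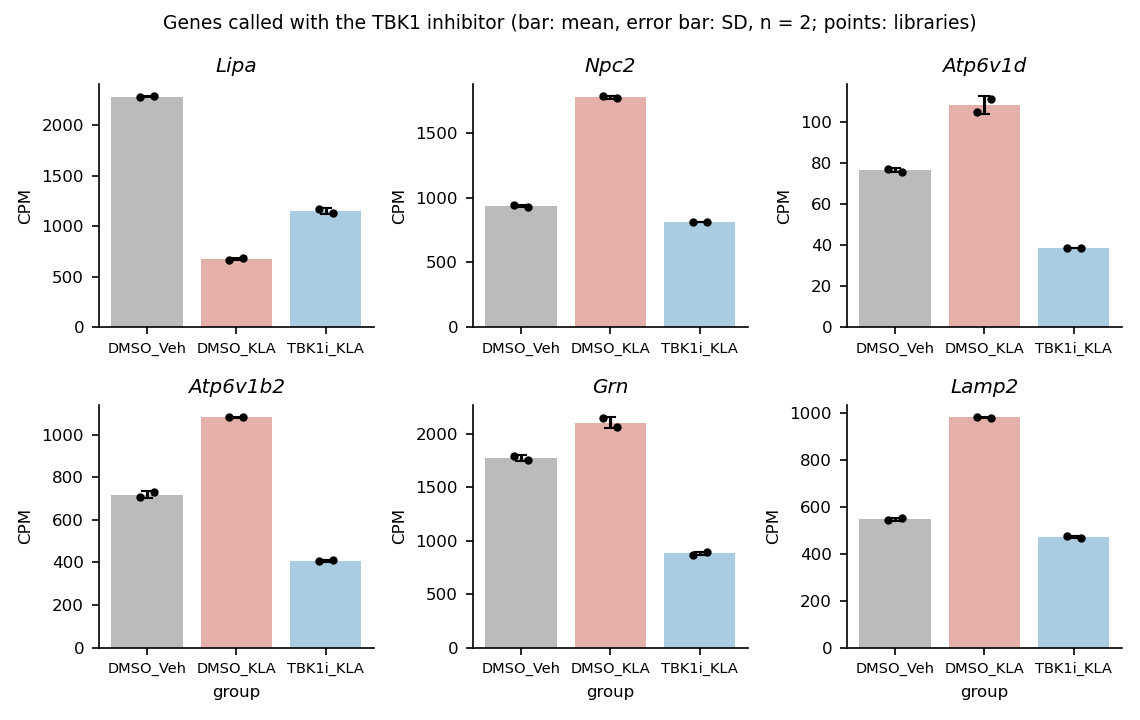
CPM (y axis, from 0) of the 6 genes called with the TBK1 inhibitor in DMSO_Veh, DMSO_KLA and TBK1i_KLA (x axis), with bars for means, error bars for SD (n = 2) and points for libraries. Lipa with the inhibitor lay between the other groups, and the other 5 genes lay below both.

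Between Pgc1b flox/flox cells with and without LysMCre, 0 genes were called in vehicle by edgeR or by DESeq2, where 0.303% of all genes were called. Of the 32 log2 differences, 28 were above 0 with a median of 0.11, 8 had an unadjusted p below 0.05 and 1 an adjusted p below 0.05. This median was near the 0.12 of NKO against WT in vehicle, so that a small median rise is not particular to the NKO cells. Both comparisons set cells with LysMCre against cells without it. With KLA, 4 of the 32 genes were called higher and 3 lower, where 26.1% of all genes were called. The interaction of Cre and KLA called 8, where 22.8% of all genes were called. Both shares were near those of all genes. Manba was 41.5 and 41.8 CPM in Pgc1b_flox_Cre_KLA against 22.6 and 20.7 CPM in Pgc1b_flox_KLA (0.94 ± 0.11). Npc1 was 229 and 224 against 133 in both (0.77 ± 0.07), Lipa 1732 and 1820 against 1092 and 1175 CPM (0.65 ± 0.06) and Atp6v1c1 215 and 218 against 139 and 140 CPM (0.63 ± 0.07). All 4 are genes that KLA lowered in this table, and their values with Cre lay between those of KLA and vehicle. Npc2, which KLA raised, was 978 and 1005 against 1552 and 1457 CPM (-0.60 ± 0.06). Tfe3 was 115 and 110 against 182 and 178 CPM (-0.68 ± 0.07) and Tfeb 10.2 and 11 against 15.6 and 16.8 CPM (-0.61 ± 0.16), below its KLA level. Leaving out 1 library ended the calls of Tfeb (at -0.53 without Pgc1b_flox_KLA replicate 2 or Pgc1b_flox_Cre_KLA replicate 1) and of Npc2 (-0.53 without Pgc1b_flox_KLA replicate 1 and -0.56 without Pgc1b_flox_Cre_KLA replicate 1).

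Of the 20 V-ATPase isoform and assembly genes listed beside the 32, 13 were tested, and KLA in WT called 3 higher and 7 lower (23.1% and 53.8%, against 25.4% and 32.3% of all genes). Atp6v0d2, the alternative d subunit known from osteoclasts, went from 987 and 811 CPM in WT_Veh to 146 in both WT_KLA libraries (-2.62 ± 0.07), to 315 and 317 CPM with poly I:C, and to 67.0 and 66.3 CPM with RANKL (-3.75 ± 0.07), while Atp6v0d1 was called in none of these. Tcirg1, the a3 subunit, was 741 and 745 CPM in WT_Veh and rose to 1359 and 1340 CPM with poly I:C (0.86 ± 0.05). It was higher with KLA in 3 of the 4 tables (0.67 to 0.98) but not in WT (0.31 ± 0.05), and the TBK1 inhibitor took it from 1303 and 1260 to 550 and 549 CPM (-1.22 ± 0.04). Among the a subunits, KLA lowered Atp6v0a1 and raised Tcirg1 in the RGFP966 and Pgc1b tables, in the same libraries.

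Of the 43 other lysosomal genes, KLA called 6 higher and 17 lower in WT, 6 and 17 in the RGFP966 table, 7 and 7 in the Pgc1b table and 6 and 20 in the DMSO table. The shares called were 53.5%, 53.5%, 32.6% and 60.5%, against 57.8%, 60%, 48.5% and 58.9% of all genes, so that none stood far above its background. RANKL called 1 higher and 28 lower (2.33% and 65.1%, against 24.1% and 19.8% of all genes). Sgsh, the heparan sulfate sulfamidase, fell most with KLA in each table, by 4.15 to 5.01 on the log2 scale. Clcn7, the lysosomal chloride-proton exchanger, went from 255 and 297 to 724 and 732 CPM in WT_KLA and to 1025 and 1023 CPM with poly I:C, and its subunit Ostm1 from 90.0 and 94.0 to 59.0 and 59.8 CPM with KLA. IL4 raised Pla2g15, a lysosomal phospholipase, by 1.46 ± 0.06 on the log2 scale.

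Of the 22 genes of the MiT-TFE factors and nutrient sensing, KLA called 6 higher and 9 lower in WT (27.3% and 40.9%, against 25.4% and 32.3% of all genes), shares near the background. Mitf and Tfec, the other members of the factor family, rose with KLA: Mitf from 176 and 186 to 390 and 393 CPM (1.12 ± 0.05) and Tfec from 9.84 and 10.8 to 88.9 and 82.5 CPM (3.05 ± 0.10). In all 4 tables both were called higher, with log2 changes of 0.82 to 1.37 for Mitf and of 2.85 to 3.09 for Tfec. With RANKL, where Tfeb also fell, Mitf went down to 121 and 119 CPM (-0.59 ± 0.05). Mitf stood at 234 and 231 CPM with the TBK1 inhibitor against 328 and 334 CPM in DMSO_KLA (-0.51 ± 0.05, not called). Tfec also rose with IL4 (2.40 ± 0.10), poly I:C (2.34 ± 0.11) and RANKL (1.49 ± 0.11). With IFNb it was lower, at 4.60 and 4.33 CPM against 9.84 and 10.8 CPM in WT_Veh. Flcn, the folliculin that acts on RagC and RagD, fell from 107 and 102 to 25.7 and 24.5 CPM with KLA (-2.06 ± 0.09), and Rragd, encoding RagD, from 42.0 and 33.9 to 1.97 and 1.67 CPM (-4.38 ± 0.20). Rragd fell in all 4 tables by 3.62 to 4.38 on the log2 scale.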

How the data were processed

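The authors aligned RNA-seq reads of oligo d(T)-enriched mRNA to mm10 with STAR and deposited 4 tables of raw counts, whole numbers of reads in exons per gene made with HOMER without normalization, with 1 transcript kept per gene. The headers name no strand option, whereas the methods describe strand-specific reads, so that overlapping genes may share reads. The study's own tests used DESeq2. All 44 columns were matched to samples by name.

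The 4 tables were fitted separately in edgeR 4.0.16 (R 4.3.3): filterByExpr on groups (13407, 12196, 12205 and 12332 genes kept), TMM scaling and robust quasi-likelihood F-tests, 2-sided, adjusted by Benjamini-Hochberg over all genes tested. A call needs an adjusted p below 0.05 and a fold above 1.5. The SE is that implied by the F statistic. Counts of 3 or fewer were taken as the floor. Gene counts were 8323493 to 16783155 per library, so that even the lowest member count, 71 for Manba, lies above it. For 2 against 2 libraries the exact permutation of a single gene cannot reach 0.05, so that the tests rest on spread shared across genes and groups. The script was tested on simulated data.

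The genes named are up to 8 called members per contrast with the largest change, a fixed set of members and listed genes, and up to 2 called genes per list. Further members were named after their values were seen. The members and lists were chosen with earlier results of these data known. Alternatives were another scaling (DESeq2 size factors), DESeq2 1.42.0, other filters on low counts, only the compared groups, a replicate block, leaving out each library, no fold threshold and, for NKO_KLA, KLA controls from other tables. Promoters are from RefSeq (GRCm38.p6, of which mm10 is the same assembly). A further result is not reported here.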

Additional observations from a re-analysis of the deposited data

Results flagged for a closer look

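Effects that differed between genotypes by edgeR's interaction term are given as log2 differences, with a threshold as above. At KLA, date stamp and sex go with genotype. The effect of KLA differed between NKO and WT cells for 13 of the 32 genes, a share near the 36.9% of all genes. It was higher in NKO cells for Atp6v0c (1.61), Mcoln1 (1.29), Naglu (1.17), Grn (1.10), Gusb (0.98), Manba (0.91), Atp6v0a1 (0.90), Npc2 (0.87) and Atp6ap1 (0.70), and lower for Atp6v1g1 (-1.45), Atp6v1h (-0.71), Atp6ap2 (-0.71) and Atp6v0d1 (-0.61). The effect of poly I:C was lower in NKO cells for Atp6v1d (-0.77, background 3.24%): 193 and 203 CPM in NKO_PolyIC against 272 and 275 CPM in WT_PolyIC. The effect of RANKL was higher in NKO cells for Glb1 (0.93, background 14.2%). With IFNb and IL4, 0 members differed by this rule (0.604% of all genes in each), by edgeR or DESeq2. By adjusted p alone 0 and 1 differed, and 5 and 9 had an unadjusted p below 0.05.

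The effect of KLA differed between Pgc1b flox/flox cells with and without LysMCre for 8 of the 32 genes, a share near the 22.8% of all genes. It was higher with Cre for Manba (1.13), Npc1 (0.69) and Lipa (0.68), and lower for Tfe3 (-0.79), Tfeb (-0.75), Atp6v1b2 (-0.70), Atp6v1d (-0.68) and Npc2 (-0.64).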

How the results depend on the processing

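The genes with the most change in each comparison, as chosen by the rule for named genes, kept their direction under the alternatives run for them. Of the genes not called between NKO_KLA and WT_KLA, some did in the joint fit with the other tables' KLA groups: Tfeb ranged from -0.53 to 0.45 (from -0.05), and Lipa from -0.77 to -0.05 (from 0.16), with a call against Pgc1b_flox_KLA. Without the fold threshold the members called rose to 28, 29, 25 and 28 for KLA (WT, RGFP966, Pgc1b and DMSO tables), 25 for poly I:C, 11 for IFNb, 12 for IL4 and 27 for RANKL. The counts for NKO were then 15 (vehicle), 26 (KLA), 18 (RANKL), 18 (poly I:C), 17 (IFNb) and 15 (IL4), with interactions of 25 (KLA), 11 (RANKL), 5 (poly I:C) and 1 (IL4). They were 19 for RGFP966, 26 for the TBK1 inhibitor, and 1, 19 and 15 for Cre in vehicle, Cre with KLA and their interaction. Shares of all genes by adjusted p alone are given above for NKO against WT and for IFNb only. The other counts cannot be set against a background. The NKO count with poly I:C was 0 with DESeq2 size factors or DESeq2. Other alternatives kept the counts within 1.5 times, apart from single libraries left out (0 to 1 for IFNb, 1 to 2 for NKO with RANKL).

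Median log2 fold changes moved by more than the replicate SD in these cases. With DESeq2 size factors, and equally with DESeq2, they were -0.24 for KLA in WT, -0.21 for poly I:C, -0.18, 0.0069 and -0.089 for KLA in the RGFP966, Pgc1b and DMSO tables, 0.32 for NKO with KLA, 0.14 for NKO with poly I:C, -0.10 for RGFP966 and -0.12 for the TBK1 inhibitor (0.0068 for the Pgc1b table with DESeq2). With genes of at least 5 CPM on average they were -0.37, -0.33, -0.068 and -0.17 for KLA in the 4 tables, -0.28 for poly I:C, -0.35 for RANKL, 0.33, 0.15 and 0.11 for NKO with KLA, poly I:C and IL4, -0.0069 for RGFP966 and -0.15 for the TBK1 inhibitor. Without a filter they were -0.28 for poly I:C, -0.27 for KLA in the RGFP966 table and -0.061 in the DMSO table. With the compared groups alone they were -0.21 for poly I:C, 0.014 for IL4, -0.13 for KLA in the DMSO table and 0.31 for NKO with KLA. For NKO with KLA the median was 0.27, 0.26 and 0.10 in the joint fit against WT_KLA, KLA and Pgc1b_flox_KLA, and 0.43 without chromosome X. With each library left out in turn the medians ranged from -0.33 to -0.28 for KLA in WT, -0.23 to -0.19, -0.047 to 0.0071 and -0.10 to -0.039 for KLA in the RGFP966, Pgc1b and DMSO tables, -0.40 to -0.35 for RANKL, -0.28 to -0.22 for poly I:C, -0.025 to 0.026 for IFNb and -0.018 to 0.039 for IL4. For NKO they ranged from 0.10 to 0.14 (vehicle), 0.14 to 0.20 (RANKL), 0.15 to 0.18 (poly I:C), 0.14 to 0.17 (IFNb) and 0.11 to 0.15 (IL4), and for Cre from 0.055 to 0.12 in vehicle and from 0.10 to 0.13 with KLA. For the TBK1 inhibitor they ranged from -0.16 to -0.12. The medians for IFNb, IL4 and KLA in the Pgc1b table thus lay near 0 and on both sides of it. The cause of these shifts was not tested.

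In the joint fit, the NKO_KLA calls of Manba (0.38), Atp6v0a1 (0.04), Gusb (0.26), Npc1 (0.40) and Atp6ap1 (0.36) were lost against Pgc1b_flox_KLA, and those of Atp6v0a1 (0.35) and Atp6ap2 (-0.40) against DMSO_KLA. Npc2 in the interaction of Cre and KLA was at -0.57 without Pgc1b_flox_KLA replicate 1.

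Same-numbered libraries did not deviate together, with correlations of at most 0.0591 over 66 pairs of groups in the NCoR table and 0.0501, 0.0301 and 0.02 in the others, so that the numbers were not taken as pairs. With the replicate block the counts were 18 for KLA in WT, 11 for RANKL and 13 for NKO with KLA, and no call of a named gene changed. Where a member had few counts, as Manba with KLA, the SE of 0.11 to 0.14 limits what can be told apart.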
